A study of Mus musculus with 2 samples.

Results

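Rab GTPases and vesicle fusion genes were compared between CD8+ T cells 72 h after activation and naive CD8+ T cells. They were chosen by name alone, as every probe set of the array whose annotation gives a single gene symbol that is Rab followed by a digit, or that starts with Stx (Stxbp included), Vamp, Snap with digits, Unc13 or Syt with a digit. This gave 283 probe sets of 124 genes, among 34945 probe sets of 18193 genes that had a single symbol. Because symbols decided membership, 3 antisense genes (Rab10os, Rab26os, Rab11fip4os1) and several Rab-binding proteins are included, while 1 probe set that names Vamp1 beside another gene is not. The activated group was proliferating CD8+ T cells and the reference was naive CD8+ T cells, both purified from pmel-1 mice, whose transgenic T cell receptor recognises a melanocyte antigen, so both groups share that transgene. The labels do not state the activating stimulus, the age of the mice or the organ. Total RNA from 4 independent experiments was pooled for each group and hybridised to 1 Affymetrix Mouse Genome 430 2.0 array, so there were 2 arrays in all and no replicates. No value below has a replicate error or a p-value, each ratio compares these 2 pools, and precision is limited by having 1 array per group.

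Membrane traffic in every cell runs on Rab GTPases, small switches that in their GTP-bound form mark an organelle and recruit tethers and motors. Fusion is then carried out by SNARE proteins, with VAMPs on the vesicle pairing with syntaxins and SNAP proteins on the target membrane, helped by Munc18 proteins (Stxbp), primed by Munc13 proteins (Unc13) and, in many secretory cells, triggered by calcium through synaptotagmins (Syt). In cytotoxic T cells the same machinery releases lytic granules at the contact with a target cell. Rab27a, Munc13-4 (Unc13d), syntaxin 11 (Stx11) and Munc18-2 (Stxbp2) are required for this step, and loss of each of them in humans causes an immune deficiency.

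Values are the authors' deposited model-based intensities on a linear scale. A probe set counted as higher or lower when activated over naive gave at least 1.4-fold in either direction, after any value under 100 was set to 100, and when the intensities as deposited were more than 100 apart. A fold with 1 value under 100 is a lower bound and is written "at least", and where both values were under 100 no ratio was formed. A gene is given by its brightest probe set, taken from the mean of the 2 arrays. For members, other probe sets that reached 100 are given where they differ from it in direction or call. Markers and genes of related lists are given by that 1 probe set alone, and the agreement of their other probe sets was not checked. Intensities of different probe sets cannot be ranked against each other, so only the ratio within a probe set is compared.

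Syntaxins of the plasma membrane and granule stood on both sides. Stx11 was 7.25-fold higher in activated cells, while Stx2 was 4.20-fold, Stx4a 1.56-fold and Stx1a 1.51-fold lower. Among the vesicle SNAREs, Vamp7 and Vamp3 were higher and Vamp1 and Vamp2 lower. Among the Rab GTPases, Rab1a was 1.96-fold higher and Rab37 4.56-fold and Rab33b 2.61-fold lower.

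By probe set, 20 of the 283 were higher (7.07%) and 31 lower (11.0%) in activated cells, against 11.2% higher and 9.31% lower among all single-symbol probe sets. By gene, 11 of 124 were higher (8.87%) and 22 lower (17.7%), against 12.8% higher and 11.1% lower among all genes. Of the 124 genes, 80 reached 100 on either array and 44 lay under 100 on both. Among the 80, 13.8% were higher and 27.5% lower, against 23.7% and 20.6% of the 9842 genes that reached 100 in the whole table. The 7 of these 80 that reached 100 on a single array could count as measured only through their brighter array. At a fold of at least 2, 2 of the 124 members were higher and 7 lower, against 1193 (6.56%) and 904 (4.97%) of 18193 genes. Over genes that reached 100, the lower counts were 7 of 80 members and 904 of 9842 genes. The median log2 ratio of the 73 members at 100 or more on both arrays was -0.11, against 0.01 for 8395 genes of the whole table. By the size rule, higher genes were thus a smaller share of the members than of the whole table, and lower genes a larger share. At a fold of at least 2, the share of lower genes was close to that of the table. Neither comparison was tested.

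Markers of the labelled cell type were present on both arrays. Of 7 CD8 T cell markers with a probe set, all reached 100 on both arrays, the sum was 26212 in activated and 34980 in naive cells, and Cd8b1 and Cd247 were lower by the size rule. The summed levels of the B cell, erythroid, myeloid and natural killer lists were lower in the activated pool. The B cell list (7 markers) summed to 563 in activated and 3076 in naive cells, where H2-Aa held 2007. In this list 3 markers were lower, H2-Aa at least 20.1-fold, Cd79b at least 2.93-fold and Cd22 1.52-fold. Cd79a and Ms4a1 did not pass, and Pax5 and Blnk were under 100 on both arrays. The erythroid list (5) summed to 179 in activated and 7161 in naive cells, where Hbb-b2 held 6852, and Hbb-b2 was its 1 marker lower by the size rule. Hbb-b2 and Alas2 were at the lowest deposited value of 1 in activated cells. Slc4a1 was at 105 in activated and 107 in naive cells, and Hba-a1 and Epb42 were under 100 on both arrays. The myeloid list (8) summed to 640 in activated and 1540 in naive cells with 4 markers lower, and the natural killer list (3) to 272 in activated and 694 in naive cells with 2 lower. The neutrophil, platelet and CD4 T cell lists had no marker past the size rule. Every marker past the size rule in the B cell, erythroid, myeloid and natural killer lists was lower. Members called lower share that direction by definition, and the part of such cells in the values of any member was not tested. In a bulk pool, fewer cells of a type and less RNA per cell cannot be told apart.

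The promoters shown are of the members with the largest ratios in each direction, among called members at 100 or more on both arrays that have an entry in the RefSeq promoter table. Rab37, with a lower ratio than any gene shown, has no entry there. Each line gives the 250 bases before the annotated start (RefSeq, GRCm38.p6), 5′ to 3′ on the gene's strand, with capitals marking matches to GGGCGG (the GC box), CCAAT (the CCAAT box), CACGTG (an E-box) or TGANTCA (the AP-1 site) on either strand, overlaps included. Stx11 and Rab1a were higher in activated cells, and Stx2 and Vamp1 were lower.
Stx11 (chr10:12964260-12964509, minus strand): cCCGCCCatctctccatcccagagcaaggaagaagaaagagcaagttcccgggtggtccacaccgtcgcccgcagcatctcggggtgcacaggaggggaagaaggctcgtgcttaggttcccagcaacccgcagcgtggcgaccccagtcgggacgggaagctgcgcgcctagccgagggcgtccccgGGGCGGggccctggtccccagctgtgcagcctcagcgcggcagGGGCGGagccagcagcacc
Rab1a (chr11:20201162-20201411, plus strand): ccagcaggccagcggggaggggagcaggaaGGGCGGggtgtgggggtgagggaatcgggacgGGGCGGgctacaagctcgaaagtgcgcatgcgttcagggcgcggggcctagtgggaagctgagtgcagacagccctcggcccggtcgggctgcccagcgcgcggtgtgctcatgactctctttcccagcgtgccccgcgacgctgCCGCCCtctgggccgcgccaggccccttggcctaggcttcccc
Stx2 (chr5:129008573-129008822, minus strand): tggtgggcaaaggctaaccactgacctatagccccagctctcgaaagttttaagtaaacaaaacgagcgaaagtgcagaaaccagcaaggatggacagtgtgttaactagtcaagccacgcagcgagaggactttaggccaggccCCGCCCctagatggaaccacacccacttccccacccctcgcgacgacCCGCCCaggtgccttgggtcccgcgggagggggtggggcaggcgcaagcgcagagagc
Vamp1 (chr6:125215331-125215580, plus strand): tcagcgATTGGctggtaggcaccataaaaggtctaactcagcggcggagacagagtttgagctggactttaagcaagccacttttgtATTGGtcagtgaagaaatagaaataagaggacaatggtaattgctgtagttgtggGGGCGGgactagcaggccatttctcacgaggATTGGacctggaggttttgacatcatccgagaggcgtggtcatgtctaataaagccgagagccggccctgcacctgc
All 4 windows held a GC box. Stx11 had 3 matches, Rab1a 3, Stx2 2 and Vamp1 1. Vamp1 alone of the 4 held the CCAAT box, with 3 matches. No window held the E-box or the AP-1 letters. Of the 27025 genes in the table, taken at their outermost start, 33.0% had a GC box in this window, 34.5% a CCAAT box, 6.0% the E-box and 6.9% the AP-1 letters. Among the called members with an entry, the GC box stood in 8 of 9 higher and 17 of 19 lower genes, the CCAAT box in 4 of 9 higher and 10 of 19 lower genes, and the E-box in 1 of 9 higher and 0 of 19 lower genes. The AP-1 letters stood in 0 of 9 higher and 0 of 19 lower genes. Higher and lower members thus both carried the GC box in most windows. The 27025 genes were not limited to genes that reached 100, as called members are, and members not called were not counted. Whether the GC box share differs from that of other measured genes was therefore not tested. A match in these windows is a description of letters and not a site of binding. Stx2 has 2 starts in the table, of which the outermost is shown.

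Of 26 genes named as syntaxins, VAMPs or SNAP proteins, 4 were higher (15.4%) and 8 lower (30.8%), against 12.8% and 11.1% of all genes. Over the 23 of them that reached 100, 17.4% were higher and 34.8% lower, against 23.7% and 20.6% of all genes that reached 100. The higher share was thus above that of all genes in the first count and below it in the second, and neither was tested. Counts by role, here and below, include genes under 100 on both arrays. The roles hold few genes each, and their shares were not compared with those of all genes. Among the syntaxins that act at the plasma membrane, 1 of 6 was higher and 3 lower. Stx11, a lipid-anchored syntaxin that cytotoxic lymphocytes need for granule release, was at 873 in activated cells and 120 in naive cells. Its other probe set stood at 194 in activated and 66.1 in naive cells, a ratio of at least 1.94-fold, so both probe sets were higher. Stx2, a broadly expressed syntaxin also called epimorphin, was at 158 in activated and 663 in naive cells, on a single probe set. Stx2 thus had the lowest ratio among the SNAREs chosen by name, and Stx11, with values under 100 set to 100, the highest among all 124 members. Stx4a, a syntaxin of constitutive exocytosis, was at 866 in activated and 1346 in naive cells. Stx1a, best known from synapses, was at 238 in activated and 360 in naive cells by a probe set whose suffix (_x) marks possible cross-hybridisation, and its other probe set (56.7 in activated and 111 in naive cells) did not pass. Stx3, a syntaxin of apical and granule membranes, was at 139 in activated and 144 in naive cells, and Stx19 was under 100 on both arrays.

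Of the 8 syntaxins of endosomes, Golgi and endoplasmic reticulum, 1 was higher and 3 lower. Stx12, a syntaxin of recycling endosomes, was at 563 in activated and 297 in naive cells (1.90-fold higher), but its second probe set, at 81.8 in activated and 101 in naive cells, showed no such difference. Stx17, which fuses autophagosomes with lysosomes, was at 188 in activated and 364 in naive cells (1.94-fold lower), and its second probe set above 100 was 2.54-fold lower. The Golgi syntaxins Stx16 and Stx5a were also lower. Stx16, of the trans-Golgi network, was at 520 in activated and 905 in naive cells (1.74-fold lower), and Stx5a, of the early Golgi, at 913 in activated and 1433 in naive cells (1.57-fold lower), with a log2 ratio of -0.33, not past the size rule, at its second probe set. The late endosomal Stx7 (411 in activated and 517 in naive cells) and Stx8 (464 in activated and 396 in naive cells), the trans-Golgi Stx6 (1044 in activated and 1136 in naive cells, 4 probe sets above 100 with log2 ratios between -0.12 and 0.33) and the endoplasmic reticulum syntaxin Stx18 (627 in activated and 532 in naive cells, 5 probe sets above 100) did not pass. All 5 probe sets of Stx18 had log2 ratios above 0, between 0.24 and 0.56.

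The VAMPs divided by member, with 2 of 7 higher and 2 lower. Vamp7, a SNARE of late endosomes and lysosomes, was at 740 in activated and 436 in naive cells (1.70-fold higher), and its second probe set at 554 in activated and 316 in naive cells (1.75-fold higher). Vamp3, cellubrevin of recycling endosomes, was at 1520 in activated and 1079 in naive cells (1.41-fold higher), and its other 3 probe sets above 100 were higher by 1.48-fold to 1.96-fold. Both genes were thus higher by every probe set that reached 100, although the call of Vamp3 by its brightest probe set ended under median, quantile and loess scaling. Vamp1 and Vamp2, synaptobrevins known from neurons and also present outside them, differed the other way. Vamp1 was at 133 in activated and 477 in naive cells (3.59-fold lower), and Vamp2 at 430 in activated and 726 in naive cells (1.69-fold lower), each on 1 probe set above 100. Vamp8, a SNARE of lysosomes and secretory granules, was at 1593 in activated and 1488 in naive cells, Vamp4 of the trans-Golgi network at 921 in activated and 965 in naive cells, and Vamp5 at 303 in activated and 292 in naive cells. These 3 did not pass, although 1 of 3 Vamp4 probe sets above 100 (80.4 in activated and 257 in naive cells) was at least 2.57-fold lower.

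No SNAP protein, Munc13 or synaptotagmin passed the size rule. Snap23, the partner of plasma membrane syntaxins outside neurons, was at 429 in activated and 457 in naive cells, and its 3 probe sets had log2 ratios between -0.09 and 0.32. Snap29 was at 247 in activated and 294 in naive cells, with log2 ratios between -0.25 and 0.55 over 3 probe sets, and Snap47 was at 738 in activated and 647 in naive cells. The neuronal Snap25, and Snap91, which despite its symbol is a clathrin assembly protein, lay under 100 on both arrays. Of the Munc13 genes, Unc13d was at 303 in activated and 386 in naive cells, while Unc13a, Unc13b and Unc13c were under 100 on both. Among 16 synaptotagmins, 13 were under 100 on both arrays, Syt7 among them, a calcium sensor of lysosome exocytosis. The exceptions were Syt11 (139 in activated and 190 in naive cells, 5 probe sets with log2 ratios between -0.48 and -0.17), Syt1 (203 in activated and 174 in naive cells) and Syt17 (123 in activated and 122 in naive cells).

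Of the syntaxin-binding genes, 1 of 6 passed the size rule. Stxbp3, Munc18c, which binds syntaxin 4, was at 519 in activated and 837 in naive cells (1.61-fold lower), and its second probe set was 1.84-fold lower. It was lower together with Stx4a, whose product it binds. Stxbp2, Munc18-2, the partner of syntaxin 11, was at 839 in activated and 908 in naive cells, and its 3 probe sets had log2 ratios between -0.12 and 0.16. Stx11 was thus higher while its partner was close to level on these arrays. Stxbp5, tomosyn, an inhibitor of SNARE assembly, was at 338 in activated and 243 in naive cells and did not pass, its difference being under 100. Stxbp4, Stxbp5l and Stxbp6 were under 100 on both arrays.

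**Figure D1:**
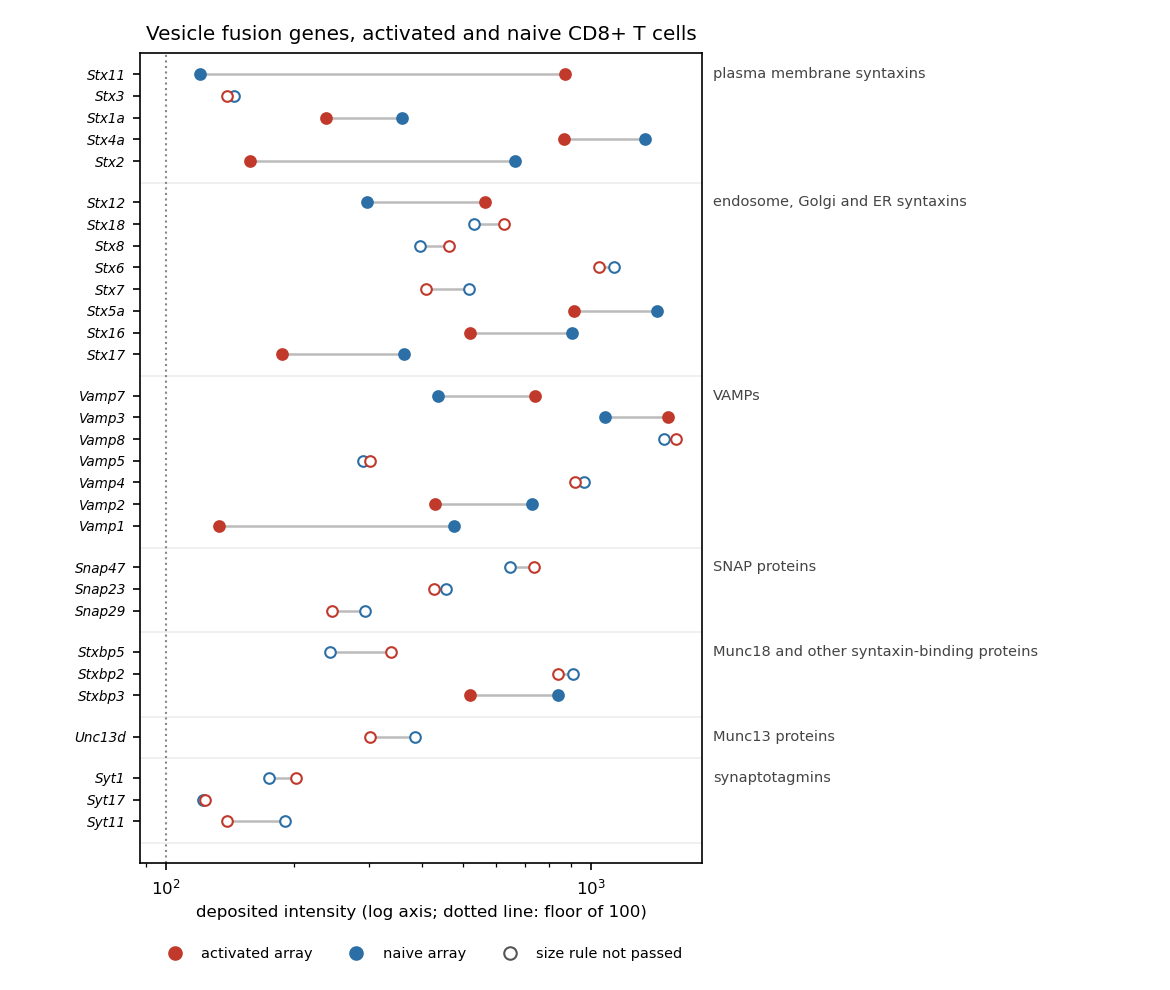
Deposited intensity (log axis) of syntaxins, VAMPs, SNAPs, syntaxin-binding, Munc13 and synaptotagmin genes that reached 100 on either array, 1 row a gene by its brightest probe set, with a red point for the activated array, a blue point for the naive array and open points where the size rule was not passed. Stx11 (873 in activated and 120 in naive cells) has the red point far to the right, and Stx2 (158 in activated and 663 in naive cells) and Vamp1 far to the left, while SNAP, Munc13 and synaptotagmin rows are all open.

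Among the 59 Rab GTPases, 6 genes were higher (10.2%) and 9 lower (15.3%), against 12.8% higher and 11.1% lower among all genes. A further 26 reached 100 without passing and 18 lay under 100 on both arrays. Over the 41 Rab GTPases that reached 100, 14.6% were higher and 22.0% lower, against 23.7% and 20.6% of all genes that reached 100. By that count the share of lower Rab GTPases was close to that of all genes. Of the Rabs of the endoplasmic reticulum and Golgi, 2 of 16 were higher and 4 lower. Rab1a, which drives transport from the endoplasmic reticulum to the Golgi, was at 4390 in activated and 2240 in naive cells (1.96-fold higher), and a second probe set was 1.53-fold higher. Its close relative Rab1b was at 588 in activated and 621 in naive cells and did not pass. Rab43, another Golgi Rab, was at 388 in activated and 271 in naive cells (1.43-fold higher), although its second probe set above 100 had a log2 ratio of -0.41.

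The lower genes of this class were Rab33b, Rab6b, Rab2b and Rab19. Rab33b, a Golgi Rab that also binds an autophagy protein, was at 285 in activated and 743 in naive cells (2.61-fold lower) on its single probe set. Rab6b, the form of Rab6 best known from brain, was at 54.6 in activated and 277 in naive cells (at least 2.77-fold lower), and its other 3 probe sets were under 100 on both arrays. The ubiquitous Rab6a was at 1119 in activated and 1036 in naive cells with 3 probe sets between -0.18 and 0.17 in log2 ratio. Rab6a and Rab6b thus differed in call, though the difference between genes was not tested. Rab2b was at 164 in activated and 291 in naive cells (1.77-fold lower), but its other 2 probe sets above 100 (log2 ratios of -0.37 and -0.52) did not pass, and its call ended with the mean over probe sets and with the lowest identifier. Rab19 was at 271 in activated and 412 in naive cells (1.52-fold lower). Rab2a, a Golgi and endoplasmic reticulum Rab, was at 1662 in activated and 1639 in naive cells by its brightest probe set, but its 5 probe sets above 100 ranged from -0.68 to 0.56 and 2 of them were lower by the size rule. Rab18, a Rab of lipid droplets and endoplasmic reticulum, was at 1054 in activated and 1202 in naive cells, with a log2 ratio of -0.19 there and 0.26 at its second probe set. Rab33a, Rab34 and Rab36 reached 100 on 1 array and did not pass, and Rab30, Rab39 and Rab39b were under 100 on both.

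Among the early endosome Rabs, 1 of 8 was higher and 1 lower. Rab5a (1306 in activated and 1379 in naive cells) and Rab5c (943 in activated and 1126 in naive cells), master regulators of early endosome fusion, did not pass. Rab5b was at 240 in activated and 400.2 in naive cells (1.67-fold lower), and its second probe set had a log2 ratio of -0.25. Rab21, which controls integrin traffic, was at 1461 in activated and 1778 in naive cells and did not pass. Rab22a was at 409 in activated and 219 in naive cells (1.87-fold higher), but its other 2 probe sets above 100 had log2 ratios of -0.30 and -0.36, so that its direction rests on the brightest probe set. Rab17, Rab20 and Rab31 were under 100 on both arrays.

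Of 12 Rabs of recycling endosomes and constitutive exocytosis, 1 was higher and 2 lower, and the nearly identical Rab11 forms fell on opposite sides. Rab11a, of the recycling endosome, was at 1356 in activated and 947 in naive cells (1.43-fold higher), and its second probe set had a log2 ratio of 0.54. Rab11b was at 1158 in activated and 1632 in naive cells (1.41-fold lower), and its other probe sets had log2 ratios of -0.76 and -0.11. All probe sets of each form above 100 had the sign of its call, but both folds lie just past the threshold, and neither call held throughout. That of Rab11a ended under quantile and loess scaling and with the lowest identifier, and that of Rab11b with the mean over probe sets. Rab4b, of fast recycling, was at 632 in activated and 910 in naive cells (1.44-fold lower), and its relative Rab4a at 126 in activated and 207 in naive cells did not pass, with a difference under 100. Rab8b (2600 in activated and 2749 in naive cells), Rab35 (922 in activated and 891 in naive cells) and Rab8a (1864 in activated and 2505 in naive cells) did not pass. Rab10 was at 2217 in activated and 2121 in naive cells, although 1 of its 3 probe sets was 1.58-fold higher. Rab14, between Golgi and endosomes, was at 1700 in activated and 2226 in naive cells, and its 5 probe sets above 100 ranged from -1.21 to 0.26. Rab13, Rab15 and Rab25, Rabs best known from epithelial and neural cells, were under 100 on both arrays.

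Late endosome and lysosome Rabs were nearly level, with 1 of 6 higher. Rab9, which returns receptors from late endosomes to the Golgi, was at 968 in activated and 686 in naive cells (1.41-fold higher), a call that ended under median, quantile and loess scaling. Rab7, the main Rab of late endosomes and lysosomes, was at 1172 in activated and 1264 in naive cells, and its second probe set had a log2 ratio of 0.27. Rab24 (637 in activated and 689 in naive cells) and Rab29 (533 in activated and 586 in naive cells) did not pass, and Rab7b and Rab9b were under 100 on both arrays.

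Among the Rabs of regulated secretion and granules, 1 of 11 was lower and none higher by its brightest probe set. Rab37, a Rab of secretory granules, was at 118 in activated and 537 in naive cells (4.56-fold lower), and its second probe set was at 86.3 in activated and 514 in naive cells (at least 5.14-fold lower). By its brightest probe set, and with values under 100 set to 100, this was the lowest ratio among the 124 members. Rab27a, which docks lytic granules at the membrane, was at 772 in activated and 641 in naive cells and did not pass by its brightest probe set. A second Rab27a probe set was at 221 in activated and 106 in naive cells (2.08-fold higher), and the third above 100 at 124 in activated and 71.9 in naive cells. All 3 had log2 ratios above 0, between 0.27 and 1.06. Rab27b was at 129 in activated and 108 in naive cells by an _x probe set, with the other 3 under 100. Rab3a (427 in activated and 415 in naive cells, also by an _x probe set, with a log2 ratio of -0.22 at its second) and Rab3d (206 in activated and 259 in naive cells) are known from secretory vesicles and did not pass. Another Rab3d probe set above 100 had a log2 ratio of 0.03. Rab32, of lysosome-related organelles, was at 81.5 in activated and 156 in naive cells and did not pass, and Rab38, Rab26, Rab44, Rab3b and Rab3c were under 100 on both arrays.

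Of the remaining Rab GTPases, Rab23, known for restraining hedgehog signalling, was at 221 in activated and 92.6 in naive cells (at least 2.21-fold higher), with its other probe sets under 100. Rab40c, which works with a ubiquitin ligase, was at 204 in activated and 314 in naive cells (1.53-fold lower), and its second probe set had a log2 ratio of -0.11. Rab28 was at 576 in activated and 536 in naive cells, although its second probe set was 1.53-fold higher. Rab12 was at 161 in activated and 231 in naive cells and did not pass, and Rab40b and Rab42 were under 100 on both arrays.

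**Figure D2:**
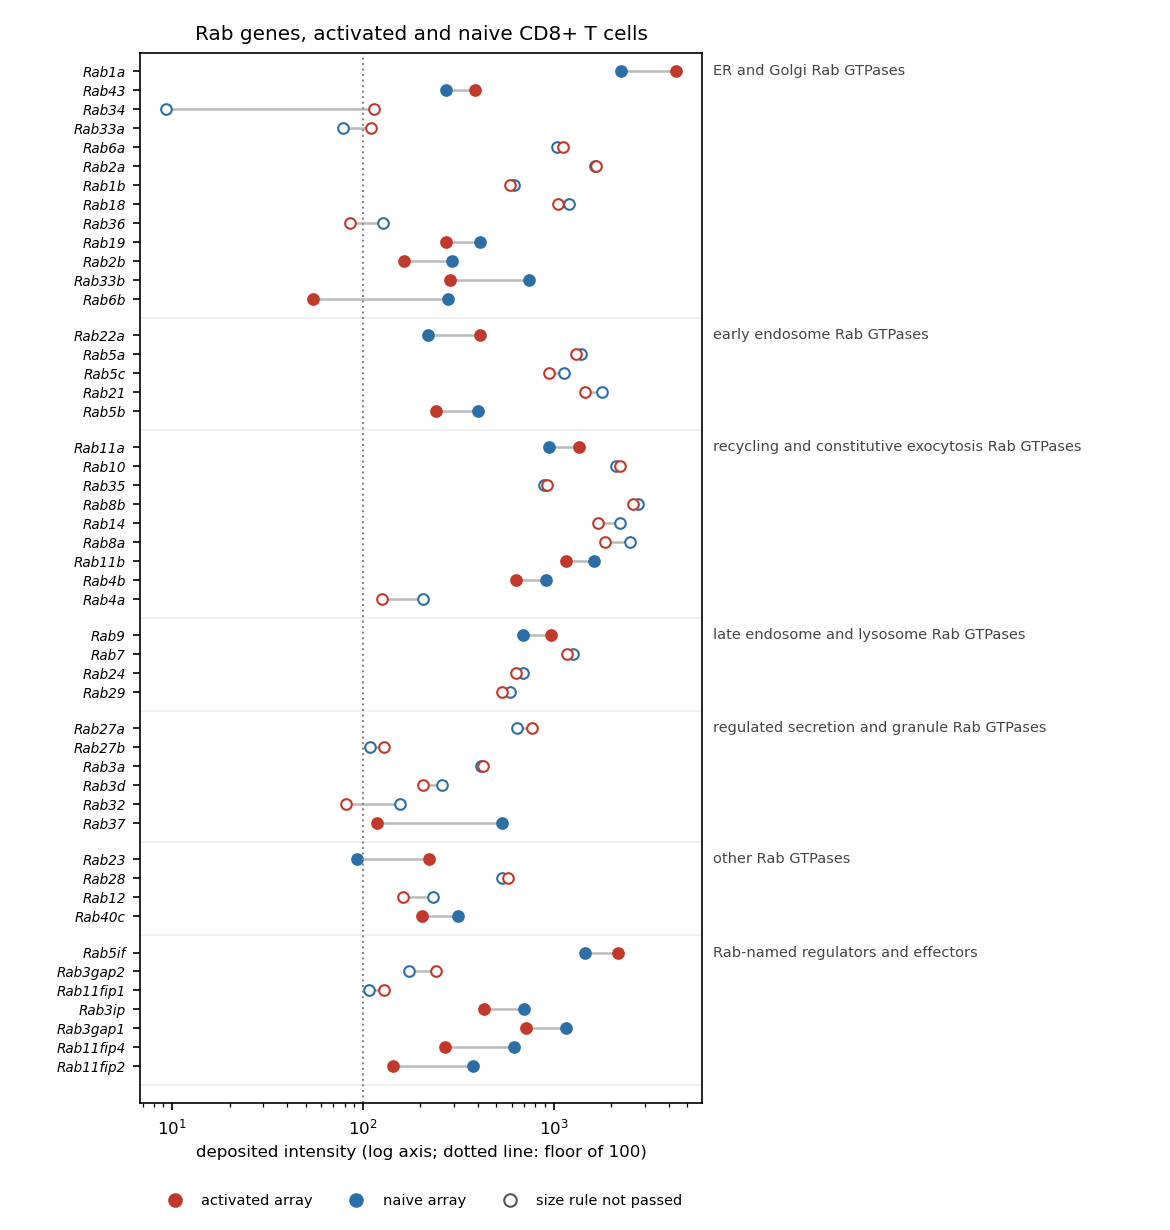
Deposited intensity (log axis) of Rab GTPases and Rab-named regulators that reached 100 on either array, 1 row a gene by its brightest probe set, with a red point for the activated array, a blue point for the naive array and open points where the size rule was not passed. Rab1a (4390 in activated and 2240 in naive cells) has its red point to the right of its blue one, Rab37 (118 in activated and 537 in naive cells) and Rab6b, whose red point is under 100, show wide gaps with red to the left, and most endosomal and lysosomal Rabs have overlapping open points.

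Of 10 genes named for the Rabs they bind or regulate, 1 was higher and 4 lower. Rab11fip2, a Rab11 effector linking recycling endosomes to myosin, was at 144 in activated and 376 in naive cells (2.62-fold lower), with a smaller log2 ratio of -0.30 at its second probe set. Rab11fip4, another Rab11 effector, was at 269 in activated and 619 in naive cells (2.30-fold lower). Rab3gap1, the catalytic subunit of the Rab3 GTPase-activating complex, was at 712 in activated and 1158 in naive cells (1.63-fold lower), while its partner Rab3gap2 was at 241 in activated and 174 in naive cells and did not pass. Rab3ip, an exchange factor that activates Rab8, was at 431 in activated and 694 in naive cells (1.61-fold lower), and its second probe set was 2.06-fold lower. Rab5if, a small membrane protein, was at 2179 in activated and 1464 in naive cells (1.49-fold higher). Rab11fip1 was at 129 in activated and 107 in naive cells, and Rab11fip3, Rab11fip5 and Rab3il1 were under 100 on both arrays. Of the antisense genes, Rab10os was at 294 in activated and 283 in naive cells, with a log2 ratio of -0.09 at its second probe set.

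Because no replicate array exists, the agreement of probe sets of the same gene was used as a check. It speaks only to the measurement within these 2 pools. The 31 spike-in or control probe sets at 100 or more on both arrays had log2 ratios between -0.42 and 1.52. That range passes 1.4-fold, and what lies behind it was not tested. Of the 33 members past the size rule, 14 had 1 probe set reaching 100 and 19 had 2 or more. In 16 of these 19 all such probe sets had the sign of the call. The other 3 were Rab43, Rab22a and Stx12, whose brightest probe set was higher while another had a log2 ratio below 0. In 8 of the 19, Stx11, Rab1a, Vamp7, Vamp3, Rab37, Stx17, Stxbp3 and Rab3ip, every probe set reaching 100 passed the size rule in the same direction. No called member had a probe set called the other way. In 6 genes (Rab2a, Vamp4, Rab28, Rab10, Rab14 and Rab27a) another probe set passed although the brightest did not. The standard deviation of log2 ratios between probe sets of the same gene was 0.39 for the members and 0.47 for all genes. Calls near 1.4-fold lay only just beyond that spread, with log2 ratios of 0.49 for Vamp3, 0.50 for Rab9, 0.52 for Rab11a, 0.51 for Rab43 and -0.49 for Rab11b. Setting values under 200 to 200 ended the calls of Rab23 and Rab6b, and leaving out _x and _s probe sets those of Stx1a and Stx5a.

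**Figure D3:**
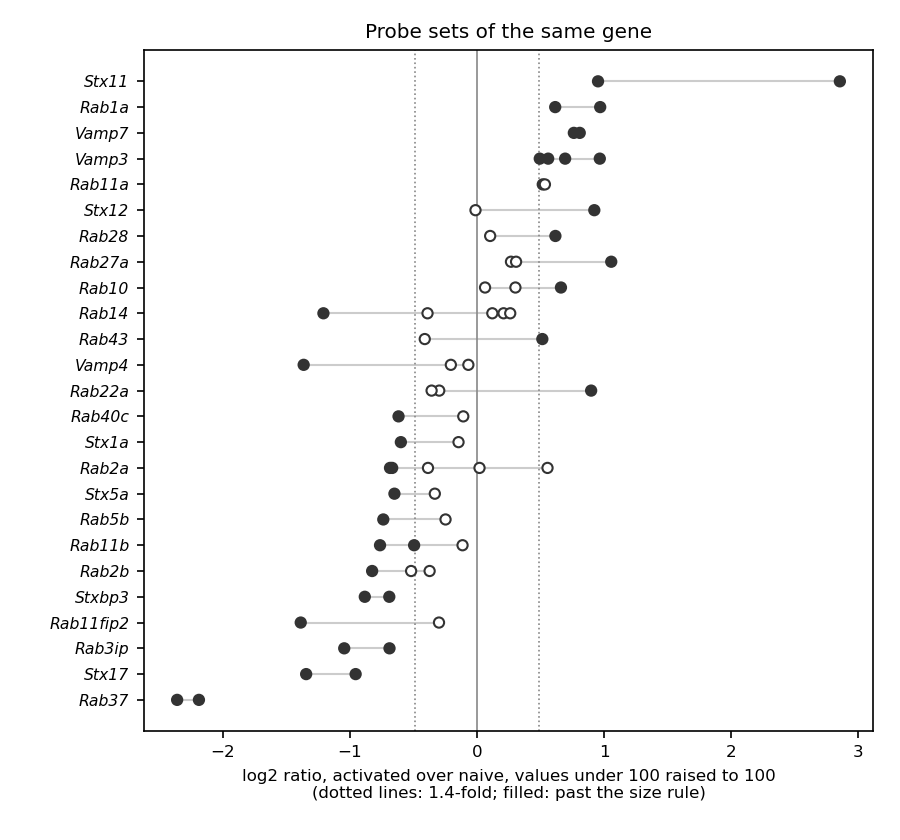
Log2 ratio of activated over naive for each probe set reaching 100 on either array, for members with 2 or more such probe sets of which at least 1 passed the size rule, 1 row a gene; filled points passed the size rule and dotted lines mark 1.4-fold. Stx11, Rab1a, Vamp7 and Vamp3 have all points filled on the right and Rab37, Stx17, Rab3ip and Stxbp3 all filled on the left, while Rab14, Rab2a and Rab22a straddle 0.

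Lists of other genes of the same pathway were counted over the genes that reached 100, for which 23.7% of all genes were higher and 20.6% lower. Among 12 SNAREs with other names, 2 were higher and 3 lower. The early Golgi SNAREs Gosr1 (314 in activated and 853 in naive cells, 2.71-fold lower) and Bet1l (1.80-fold lower) were lower with Stx5a, which forms complexes with both. Use1, a SNARE of Golgi-to-endoplasmic-reticulum transport, was 2.90-fold lower, while Vti1a (1.87-fold) and Bet1 (1.41-fold) were higher. Golgi SNAREs therefore stood on both sides. Of 8 genes of SNARE disassembly and the wider Sec1 family that reached 100, Napg was 1.75-fold lower and none was higher. Vps33b (268 in activated and 271 in naive cells) and Scfd2 (147 in activated and 144 in naive cells) lay nearest to no difference.

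Genes that prenylate, escort and extract Rabs from membranes included 3 higher and 2 lower of 7. Chml, a Rab escort protein, was at 297 in activated and 95.3 in naive cells (at least 2.97-fold higher), Gdi2, which extracts Rabs from membranes, at 6757 in activated and 4193 in naive cells (1.61-fold higher), and Rabggtb, the catalytic subunit of Rab geranylgeranyl transferase, was 1.47-fold higher. Its partner subunit Rabggta was 1.67-fold lower, and Rabac1, a Rab acceptor protein, was at 919 in activated and 2105 in naive cells (2.29-fold lower). Subunits of the transferase thus fell on opposite sides. The escort protein gene Chm was at 990 in activated and 899.9 in naive cells, and Rabif at 529 in activated and 543 in naive cells.

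Rabs are switched on by exchange factors and off by GTPase-activating proteins with a TBC domain. Of 18 exchange factors that reached 100, 2 were higher and 7 lower, led by Dennd1c, at 334 in activated and 1124 in naive cells (3.36-fold lower), and Madd, which acts on Rab3 and Rab27, at 385 in activated and 741 in naive cells (1.93-fold lower), with Dennd4b 1.85-fold and Rgp1 1.65-fold lower. Ccz1, part of the Rab7 exchange factor, was 1.58-fold and Dennd4a 1.48-fold higher. Of 25 TBC domain genes that reached 100, 2 were higher and 6 lower. Tbc1d10c, a T cell inhibitor of Ras and calcineurin signalling, was at 1139 in activated and 3397 in naive cells (2.98-fold lower), and Tbc1d4, known from glucose transporter traffic, at 360 in activated and 1004 in naive cells (2.79-fold lower). Tbc1d7, a subunit of the TSC complex, was at least 2.85-fold and Usp6nl, which acts on Rab5, 1.96-fold higher.

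Tethers hold a vesicle at its target before fusion. Of 9 exocyst subunits, Exoc6 was 1.44-fold higher and none was lower, and of 6 lysosomal HOPS and endosomal CORVET subunits that reached 100, Tgfbrap1 (1.48-fold), Vps16 (1.45-fold) and Vps39 (1.44-fold) were lower and none was higher. Of 9 Rab27 effectors and linked motor genes, 4 reached 100, of which 1 was higher, 1 lower and 2 did not pass. The effector Sytl2, which tethers granules to the membrane, was at 144 in activated and 340 in naive cells (2.36-fold lower). Myo5a, a myosin motor that carries granules along actin, was at 311 in activated and 69.7 in naive cells (at least 3.11-fold higher).

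Genes of granule cargo and biogenesis stood on both sides, with 5 of 16 higher and 4 lower. Gzmb was the largest, at 10896 in activated and 282 in naive cells (38.6-fold higher), and Gzmc was at least 8.29-fold higher. Prf1, perforin, was at 1025 in activated and 708 in naive cells (1.45-fold higher), while Gzmm was at least 4.73-fold and Gzma 4.27-fold lower. Lyst, whose loss gives giant granules, was at 668 in activated and 1413 in naive cells (2.12-fold lower). Among the genes named above as required for granule release, Stx11 alone passed the size rule by its brightest probe set. Rab27a, Unc13d and Stxbp2 had log2 ratios of 0.27, -0.35 and -0.11.

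**Figure D4:**
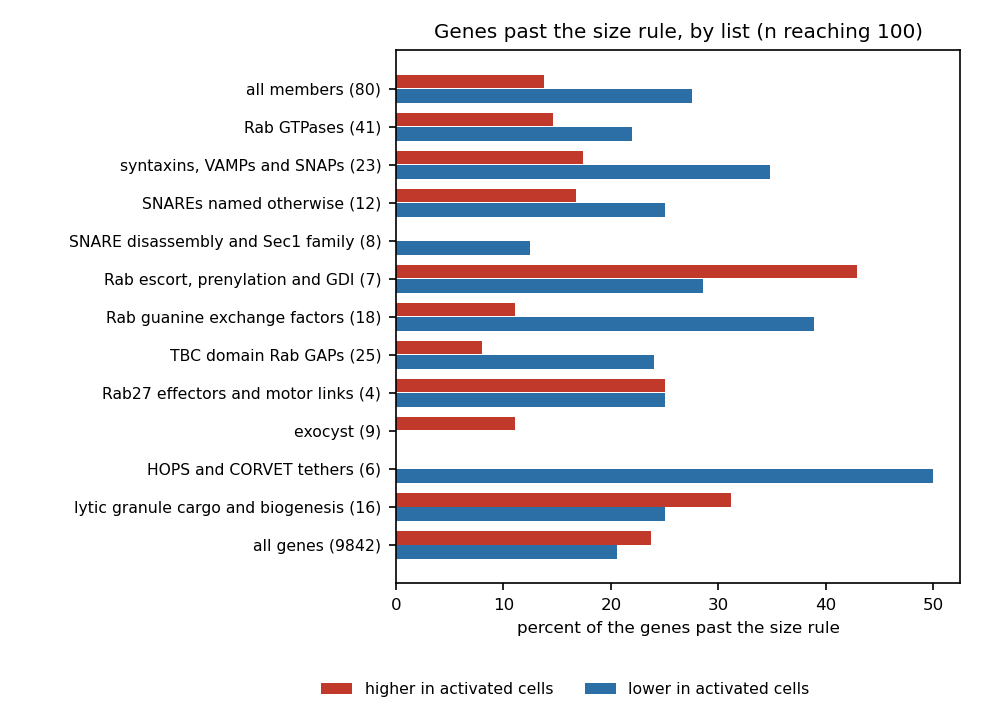
Percent of genes reaching 100 on either array that passed the size rule as higher (red) or lower (blue) in activated cells, for the members, their Rab GTPase and SNARE subsets, 9 lists of related genes and, at the bottom, all genes, with the number of genes reaching 100 in brackets. Members were 13.8% higher and 27.5% lower, against 23.7% and 20.6% of all genes, and lists of under 10 genes move by over 10 percentage points with each gene.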

How the data were processed

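RNA of activated and of naive CD8+ T cells was measured on 1 array each, pooled from 4 experiments per the labels' protocols. The authors deposited 1 linear intensity per probe set. Per the series' design text, these were computed with the perfect-match minus mismatch difference model of dChip and normalized by its invariant set method, and present calls came from GCOS 1.3. No label names the version of dChip. Calls and confidence bounds were not used here, so the size rule keeps those parts of the study's rule that intensities allow. The difference model makes values near background unreliable, and 57.3% of 45037 probe sets lay under 100 on both arrays. The median intensity was 52.3 on the activated and 56.2 on the naive array.

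Symbols came from the platform annotation, and all 124 member genes matched the RefSeq table (GRCm38.p6), with 0 symbols changed. Promoters were found for 99 of them. Every member gene reaching 100 on either array could be named, and in each related list up to 4 genes past the size rule with the largest ratios and up to 2 nearest to 0. Bet1, Rabggtb, Ccz1, Dennd4a, Prf1 and Lyst were named outside this rule after their values were seen. Members and lists were chosen with earlier results of these data known. The size rule was also run on simulated data. Changes there were planted only in bright probe sets, at 2-fold or more, with less noise than the spread between probe sets of a gene here. That run therefore cannot speak to calls under 2-fold or in dim probe sets. Python 3.11.15, pandas 2.3.3, numpy 2.4.6, statsmodels 0.14.6 and matplotlib 3.10.9 were used.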

Additional observations from a re-analysis of the deposited data

How the results depend on the processing

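With 1 array per group, no spread between experiments is known, and no paired analysis was possible because neither group has replicates. Signal over background limits most synaptotagmin and Munc13 genes. The alternatives were a stricter fold (at least 2), other minimum differences (50 and 200), other floors (50 and 200), scaling by median, quantiles or loess, leaving out _x and _s probe sets, and the mean or the lowest identifier in place of the brightest probe set. With a fold minimum of 2, member probe sets numbered 3 higher and 12 lower, and genes 2 higher and 7 lower, by construction of the stricter rule. A difference minimum of 200 left 20 lower probe sets and ended 9 gene calls (Rab19, Rab22a, Rab23, Rab2b, Rab40c, Rab43, Rab5b, Stx17 and Stx1a). Quantile scaling left 7 genes higher against 23 lower, so that higher genes made up 23.3% of the called members in place of 33.3%, while the same share over all genes was 49.1% in place of 53.5%. Under it Rab11a, Rab43, Rab9 and Vamp3 were no longer past the size rule. Median and loess scaling also ended the call of Rab9 and Vamp3, and loess scaling those of Rab11a and Rab40c. Leaving out _x and _s probe sets ended the calls of Stx1a and Stx5a. The median log2 ratio of the members lay between -0.19 and -0.08 under all alternatives. The mean over probe sets ended 7 calls (Rab11b, Rab22a, Rab2b, Rab40c, Rab43, Stx12 and Stx1a). Taking the lowest identifier ended 6 (Rab11a, Rab11fip2, Rab22a, Rab2b, Stx12 and Stx5a), newly called Rab10 and Rab27a, and reversed Rab22a (-0.36) and Stx12 (-0.011). Of 880 values of 80 genes under the alternatives, 856 moved by less than the spread of 0.47 between probe sets of a gene. A further 22 values moved by more with the same sign or no call, and 2 reversed. The stricter fold and the other minimum differences alter calls only, so no log2 ratio could move under them. A gene with a single probe set could not move under the mean or the lowest identifier. The 856 thus include values fixed in advance, and their number does not measure how stable the ratios are. For Stx11 the log2 ratio was 2.13 with a floor of 200 and 1.91 as the mean over probe sets, and for Rab37 it was -1.43 with a floor of 200. For Rab11fip2 it was -0.84 as the mean over probe sets and -0.30 by the lowest identifier.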
